A study of Danio rerio with 6 samples.

Results

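The globin genes active in zebrafish embryos and larvae were followed in whole embryos exposed to Tanshinone I (Tan I), a diterpene of Salvia miltiorrhiza. Members were the rows of the expression table whose gene symbol was one of 10 globin symbols. Of these symbols, 9 were present and hbba1 was on no row, and hbae1.3 was on 2 rows, which gave 10 member rows of 21317 in the table. The 2 rows of hbae1.3 are called the strong row (ENSDARG00000089124) and the weak row (ENSDARG00000089475) after their read counts. All embryos were of the Tg(c-mybhyper:GFP) strain, a zebrafish leukemia model with hyperactive c-myb, and the controls carried the transgene too. From 30 to 72 hpf (hours post-fertilization) they were kept in 60 µM Tan I or in its solvent DMSO, and RNA was taken at 72 hpf, with 3 libraries in each group. The start is the one the paper gives for imaged embryos of this strain. Its RNA methods name embryos and their age but no start or dose, and the sample titles read zebrafish cells. How many embryos entered a library was not stated, and no source said whether libraries came from separate clutches, so p-values measure only the spread between these libraries.

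Hemoglobin carries oxygen in red blood cells and is built of alpha and beta globin chains, each holding a heme group. Zebrafish genes for the chains lie mixed together in a major and a minor cluster, and the fish replaces embryonic chains by adult ones as it grows, with embryonic red cells circulating at the stage studied here. Symbols that begin with hbae and hbbe denote embryonic alpha and beta genes, and hbaa1 is an adult alpha gene. In RNA from whole embryos, fewer red cells and less globin RNA per cell cannot be told apart.

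The 6 libraries held between 15874701 and 24932190 reads over the rows of the table, and all of the Tan I libraries were deeper than all of the DMSO ones. On the first principal component of all tested genes, with 37.2% of the variance, Tan I replicate 3 (9.75) lay nearer to the DMSO libraries (-22.4 to -18.0) than the other Tan I libraries did (26.7 and 24.8). Values are normalized read counts, that is reads per gene divided by a size factor of the library, and are given in the order of replicates 1, 2 and 3. Log2FC is the log2 fold change of Tan I over DMSO, given with its limma SE over 3 libraries per group. This SE and the limma p draw on the spread of the row itself and on that of tested genes at a similar level. A row was called when its limma p, adjusted over all tested genes, was under 0.05. Reads that mapped to several places had been removed before counting, so near-identical globin copies can lose or exchange reads and single rows are uncertain. For some rows the symbols also differed between sources. The row called hbae1.1 in the table (ENSDARG00000088330) was hbae1.2 in a separate table of gene names, and the weak hbae1.3 row was hbae1.1 there, and hbbe1.1, hbbe1.3 and hbbe2 shared the symbol HBE1. Counts are not per length, so sums, shares, ratios and the split into abundant and weak rows are of reads and not of transcripts. They are given to compare the groups and not the heights of genes.

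After Tan I, 3 of the 10 globin rows fell, 1 rose and 6 did not pass the test. All 10 rows were tested, 8 had a negative log2FC, and the median of the 10 was -0.28, against -0.0067 over all tested genes. At the limma threshold, hbbe2, hbae5 and the strong row of hbae1.3 fell and hbbe3 rose. These 4 calls among 10 rows stand beside 2.57% of the 20836 genes tested, with 0.504% called lower and 2.07% called higher. In 4 rows every Tan I library lay below every DMSO library, and in 1 row above, where 10.4% and 10.7% of all tested genes did so. These members were chosen with earlier results of the same libraries known, so the counts are a description. Without DMSO replicate 2 only hbbe2 and hbbe3 were called, and limma without its mean-variance trend called hbbe3 alone. Without Tan I replicate 3 there were 5 calls, with hbae3 added. Calls over all tested genes moved as well, from 536 in the main fit to 214, 165 and 700 in these settings, in the same order.

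**Figure D1:**
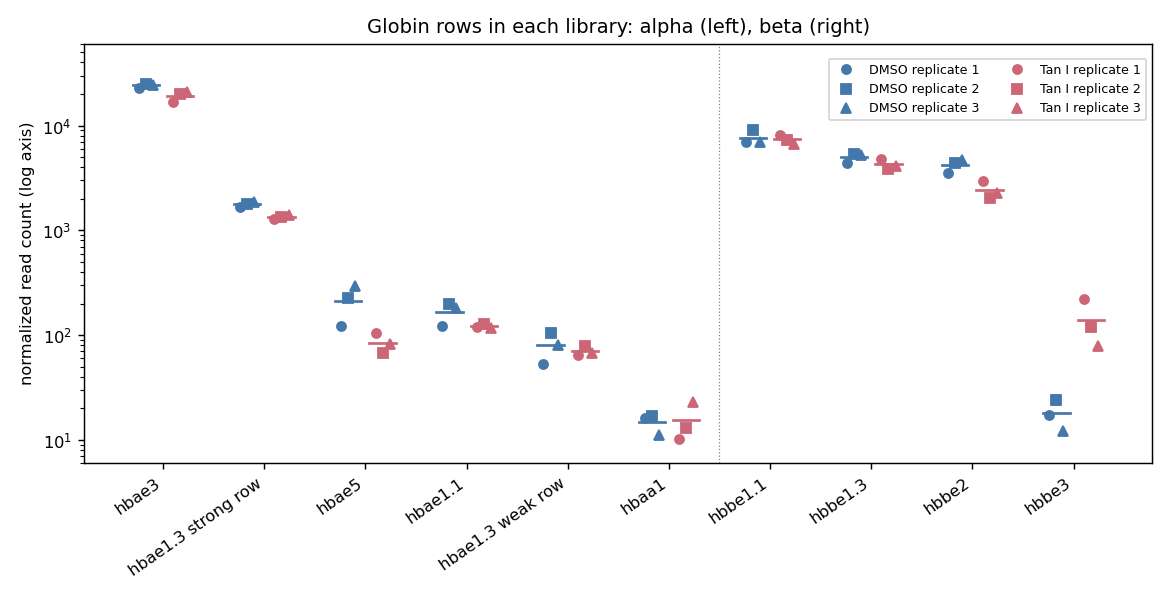
Normalized read count (log axis) of each of the 10 globin rows in each library, with alpha rows left of the dotted line and beta rows right of it. Each point is 1 library and each bar a group mean. The points of hbbe3 are all higher in Tan I (79.2 to 222) than in DMSO (12.2 to 24.3), and those of hbbe2, hbae5, hbae3 and the strong hbae1.3 row are all lower.

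Among the alpha genes, hbae3 (ENSDARG00000079305), an embryonic chain of the major cluster, was read in each library, and its share of the summed alpha count overlapped between groups (91.0% to 92.0% under DMSO and 91.4% to 92.5% under Tan I). Its normalized read count was 22993, 25107 and 24619 under DMSO, against 16872, 20047 and 20946 under Tan I. Each Tan I library was thus below each DMSO library, with Tan I replicate 1 the lowest. Its log2FC was -0.33 ± 0.09, and the adjusted p by limma, 0.0659, missed the threshold. DESeq2 on the reads recovered from the values (adjusted p 0.0108) put it past, as did limma without Tan I replicate 3 (adjusted p 0.0252) and with the replicate number as a block (adjusted p 0.00324), and the range over 17 alternatives was 0.00324 to 0.316.

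The strong row of hbae1.3, another embryonic alpha gene of the major cluster, had normalized counts of 1675, 1796 and 1859 under DMSO, against 1284, 1347 and 1409 under Tan I. The groups did not overlap, and the libraries of a group lay close together, with a coefficient of variation of 5.26% in DMSO and 4.65% in Tan I. It fell with a log2FC of -0.40 ± 0.07 (limma adjusted p 0.00771). This call stood in 15 of 17 alternatives and was lost without the trend (limma adjusted p 0.109) and without DMSO replicate 2 (0.0716).

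The embryonic alpha gene hbae5 (ENSDARG00000045142) of the minor cluster had normalized counts of 123, 226 and 294 under DMSO, against 105, 67.4 and 81.7 under Tan I. DMSO replicate 1 lay just above Tan I replicate 1, and the other DMSO libraries lay well above all Tan I libraries. The means were 214 ± 86.2 and 84.7 ± 18.9 (SD, n = 3). Its log2FC, -1.26 ± 0.26 (limma adjusted p 0.0226), ranked 10 among the lowest of all tested genes. The call was lost without DMSO replicate 2 (log2FC -1.18, limma adjusted p 0.139), without DMSO replicate 3 (-0.99, 0.0838), without Tan I replicate 2 (-1.11, 0.114) and without the trend (adjusted p 0.188).

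The remaining alpha rows had few reads. The row labelled hbae1.1 had normalized counts of 123, 198 and 182 under DMSO, against 120, 126 and 116 under Tan I, and DMSO replicate 1 lay within the range of Tan I. Its log2FC of -0.44 ± 0.17 did not pass (limma adjusted p 0.236), but did without DMSO replicate 1 (log2FC -0.65, adjusted p 0.0354). The weak hbae1.3 row lay between 53.2 and 106 in DMSO and between 65.3 and 79.6 in Tan I, so the groups overlapped (log2FC -0.13, limma adjusted p 0.841). The only adult gene with a row, hbaa1 (ENSDARG00000097011), had 14, 14 and 10 reads in DMSO and 13, 14 and 27 in Tan I. At this depth the 95% interval of its log2FC ran from -0.80 to 0.81, so a difference within that range could be missed.

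The beta genes differed more from each other. The embryonic beta gene hbbe1.1 (ENSDARG00000113599) of the major cluster had normalized counts of 7015, 9058 and 6984 under DMSO, against 8183, 7294 and 6645 under Tan I. The groups overlapped, and the log2FC was -0.05 ± 0.10 (95% interval -0.28 to 0.17, limma adjusted p 0.851). Its sign turned with quantile normalization (0.0020) and without single libraries (-0.13 to 0.070). Another embryonic beta gene of this cluster, hbbe1.3 (ENSDARG00000087390), had 4345, 5382 and 5185 under DMSO, against 4808, 3833 and 4107 under Tan I (log2FC -0.23 ± 0.10, limma adjusted p 0.280). Here 2 of the 3 Tan I libraries were below all DMSO libraries, and no alternative put the row past the threshold.

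The embryonic beta gene hbbe2 (ENSDARG00000045143) of the minor cluster fell. Its normalized read count was 3506, 4394 and 4713 under DMSO, against 2945, 2025 and 2290 under Tan I. No libraries overlapped, and DMSO replicate 1 and Tan I replicate 1 were the closest pair. The means were 4204 ± 625 and 2420 ± 474 (SD, n = 3), and the log2FC was -0.80 ± 0.13 (limma adjusted p 0.00432). Of 17 alternatives, 16 kept the call, and limma without the trend gave an adjusted p of 0.126.

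Its neighbour hbbe3 (ENSDARG00000038147), also an embryonic beta gene of the minor cluster, moved the other way. It had normalized counts of 17.3, 24.3 and 12.2 under DMSO, from 15, 20 and 11 reads, against 222, 120 and 79.2 under Tan I, from 286, 128 and 92 reads. Every Tan I library was more than 3 times as high as any DMSO library, but the Tan I libraries themselves spread widely, with a coefficient of variation of 52.5%. The means were 18.0 ± 6.05 and 140 ± 73.8 (SD, n = 3), a ratio of 7.82. Its log2FC, 2.82 ± 0.34 (limma adjusted p 0.000432), ranked 10 among the highest of all tested genes. It was called in all 16 alternatives in which it was tested, with a log2FC of 2.34 to 3.17 and an adjusted p between 4.49e-06 and 0.0440.

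Within single libraries, hbbe3 made up 0.492%, 0.550% and 0.259% of the sum of hbbe3 and hbbe2 in DMSO and 7.02%, 5.59% and 3.34% in Tan I. The shares of the 2 groups did not overlap. Of the summed beta count, hbbe2 took 23.6%, 23.3% and 27.9% under DMSO, against 18.2%, 15.3% and 17.5% under Tan I. The share of hbbe1.1 was 45.5% ± 3.63 under DMSO and 52.1% ± 2.49 under Tan I (SD, n = 3), and neither share overlapped between groups. The share of hbbe1.3 was 29.5% ± 1.11 and 30.0% ± 1.23 and overlapped. Shares sum to a whole, so the lower share of hbbe2 raises the others. In the alpha sum, the shares of all 6 rows overlapped between the groups. The share of hbae5 went from 0.800% ± 0.298 to 0.414% ± 0.137 (SD, n = 3).

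**Figure D2:**
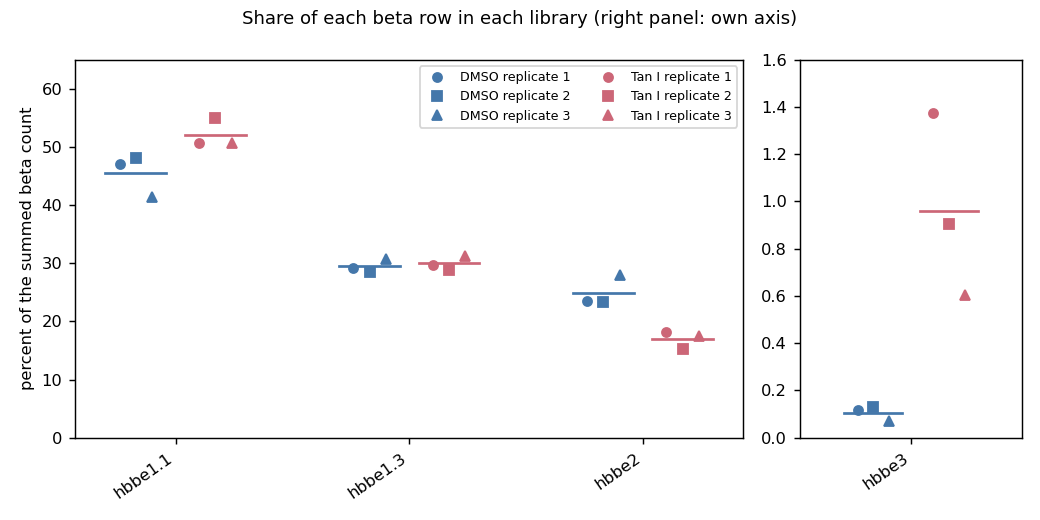
Percent of the summed normalized count of the 4 beta rows that each row took in each library, with hbbe3 on an axis of its own. Points are libraries and bars group means. In every Tan I library hbbe2 (15.3% to 18.2%) took less than in any DMSO library (23.3% to 27.9%), and hbbe3 took 0.603% to 1.38% against 0.0724% to 0.129%.

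To compare the chains as wholes, the member rows were summed in each library, without hbbe1.2, an embryonic beta gene of the major cluster that was not among the listed symbols. The sum over all 10 rows was 39866, 46308 and 43940 under DMSO, against 34616, 34953 and 35765 under Tan I, so each Tan I library was lower. This was 0.203% to 0.240% of all normalized counts in DMSO and 0.179% to 0.193% in Tan I. The mean sum was 43371 ± 3259 under DMSO and 35111 ± 590 under Tan I (SD, n = 3). Of the difference, 59.9% came from hbae3, 21.6% from hbbe2, 8.73% from hbbe1.3 and 5.20% from the strong row of hbae1.3. A row with more reads weighs more here, and the DMSO means were 24240 for hbae3, which was not called, and 4204 for hbbe2.

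The alpha sum was 24983, 27450 and 27046 under DMSO, against 18457, 21681 and 22643 under Tan I, with no overlap. The beta sum was 14883, 18859 and 16894 under DMSO, against 16159, 13272 and 13121 under Tan I, and Tan I replicate 1 was among the DMSO values. The ratio of alpha to beta counts was 1.46 to 1.68 under DMSO and 1.14, 1.63 and 1.73 under Tan I, so 2 of the 3 Tan I libraries were within or just above the DMSO range and replicate 1 was below it. The difference of the log2 ratio was -0.09 and turned to 0.09 without Tan I replicate 1, so the direction rested on that library. This ratio is one of uniquely mapped reads and not of chains. The row of hbbe1.2 had normalized counts of 4580, 4906 and 5418 under DMSO, against 5148, 4133 and 4150 under Tan I. With it in the beta sum, a choice made after its values were seen, the ratio was 1.22 ± 0.0644 under DMSO and 1.14 ± 0.240 under Tan I (SD, n = 3). The groups still overlapped in this ratio and in the beta sum, and did not overlap in the sum over all rows. The share of hbbe2 in the beta sum was then 19.2% ± 1.67 under DMSO and 12.9% ± 1.14 under Tan I, and those of hbbe1.1, hbbe2 and hbbe3 were still apart. No p is given for these sums.

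**Figure D3:**
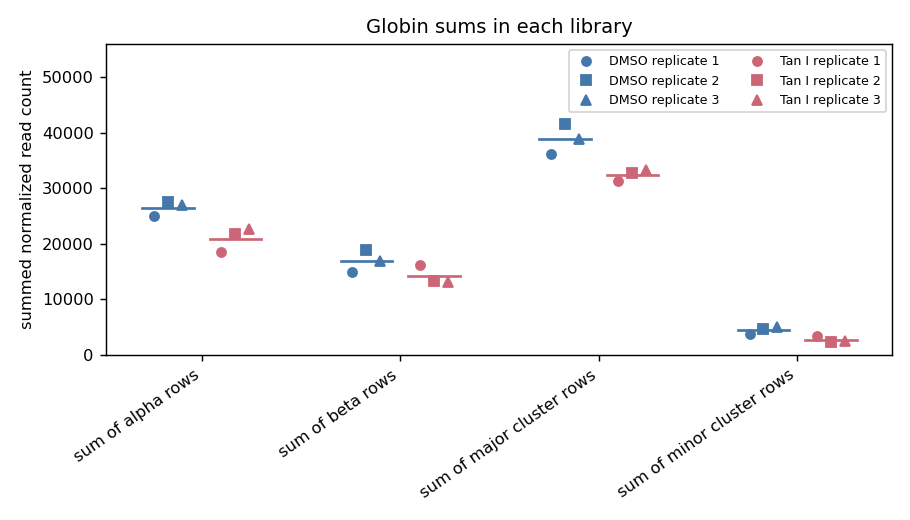
Summed normalized read count of the alpha, beta, major cluster and minor cluster rows in each library, with bars at the group means and an axis that starts at 0. All Tan I libraries lie below all DMSO libraries except in the beta sum, where Tan I replicate 1 (16159) lies within the DMSO range.

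Tan I replicate 1 stood apart in several rows. Among the Tan I libraries it had the lowest hbae3 and strong hbae1.3 counts and the highest counts of all 4 beta rows and of hbae5. It was also the deepest library, and its part in these values was not tested. With the reads of every library thinned to the smallest total, an alternative chosen after the depths were seen, the same 4 rows were called.

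Abundant and weak rows were compared next, with a mean normalized count of 1000 as the limit, which was set after the values were seen. The nearest rows on either side were the strong hbae1.3 row and hbae5. Of the 5 abundant rows (hbae3, strong hbae1.3, hbbe1.1, hbbe1.3 and hbbe2), 2 fell and 3 did not pass, with log2FCs between -0.80 and -0.05. Of the 5 weak rows, hbbe3 rose, hbae5 fell and 3 did not pass, with log2FCs between -1.26 and 2.82. Over all tested genes, 0.504% were called lower and 2.07% higher. The median coefficient of variation was 11.1% in both groups for abundant rows, 32.8% in DMSO and 22.4% in Tan I for weak rows, and 8.85% and 9.14% for all tested genes. Weak rows were therefore the less precise ones.

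By position, the 3 member rows of the minor cluster were all called, and 1 of 7 in the major cluster. Over all tested genes 2.57% were called, 0.504% lower and 2.07% higher. Members were chosen with earlier results known, so the counts per cluster are a description, and an effect of position was not tested. Gene order was read from the RefSeq annotation of another assembly (GRCz12tu), where the protein-coding genes of the minor cluster stand as hbae4, hbbe3, hbbe2 and hbae5, followed by the water channel genes aqp8a.2 and aqp8a.1. Of the 13 globin genes in its major cluster, 7 had a row by their deposited symbol, hbbe1.2 among them. The table lists hbae4 under another symbol (ENSDARG00000045144), with normalized counts of 33.5, 48.6 and 43.4 under DMSO, against 48.2, 32.8 and 36.1 under Tan I. The groups overlapped (log2FC -0.10, limma adjusted p 0.884), so hbbe3 stood between a gene that was not called and one that fell. The sum over the minor cluster rows was 3646, 4645 and 5018 under DMSO, against 3272, 2212 and 2451 under Tan I, lower in each Tan I library.

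Genes beside the clusters were read as well, 3 on each side, a choice made after values were seen. Of the 5 genes with a row beside the major cluster 0 were called. With limma 0 of them had an unadjusted p under 0.05, against 3182 of 20836 over all tested genes. Among them was nprl3, whose introns hold the enhancer of alpha globin genes in vertebrates, with means of 263 ± 18.4 under DMSO and 260 ± 14.2 under Tan I (SD, n = 3). Of the 6 beside the minor cluster, aqp8a.1 rose from 614 ± 64.5 to 824 ± 79.4 (SD, n = 3; log2FC 0.42 ± 0.10, limma adjusted p 0.0401). This call held in 10 of 17 alternatives (adjusted p 0.00880 to 0.201) and was lost without any 1 of the DMSO libraries (0.0618, 0.0856 and 0.130), without Tan I replicate 2 (0.178) or 3 (0.0757), without the trend (0.201) and with the reads thinned to the smallest library (0.0775). Next to it, aqp8a.2 had an unadjusted limma p of 0.0227 and was not called (log2FC 0.33, adjusted p 0.233). The beta gene hbbe1.2 (ENSDARG00000115405) had a log2FC of -0.15 ± 0.09 (limma adjusted p 0.457).

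**Figure D4:**
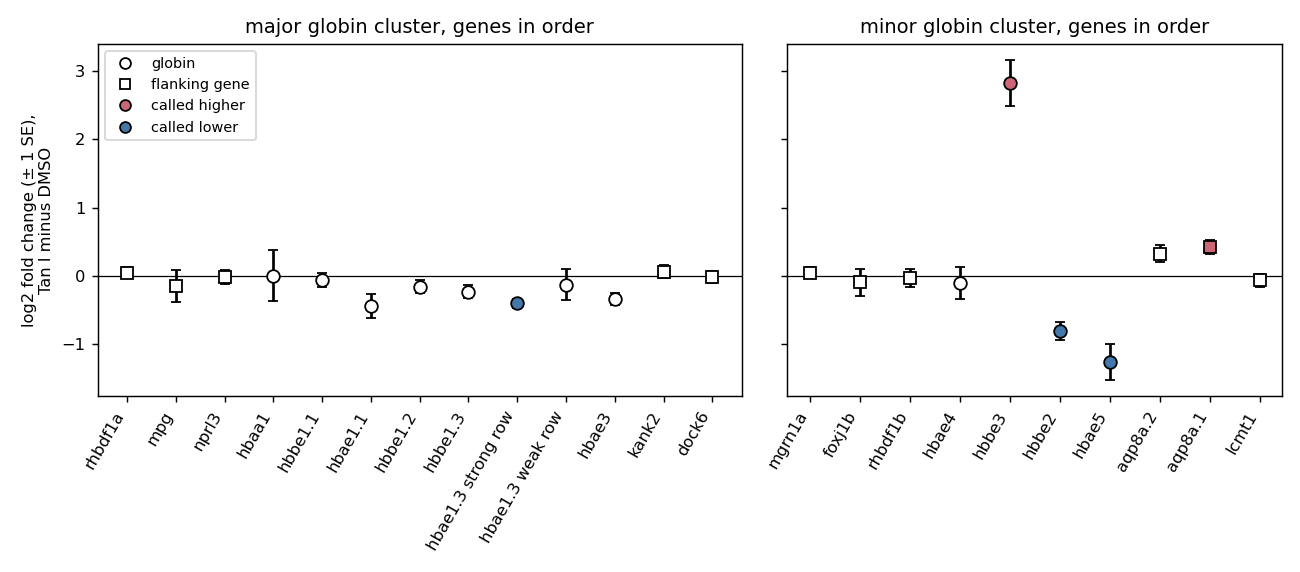
Log2 fold change (Tan I minus DMSO, limma, bars ± 1 SE) of the globin rows (circles) and flanking genes (squares) of both clusters, in RefSeq order, leaving out genes with no row. Rows other than hbae4 were placed by their deposited symbol. That symbol differed between sources for some rows, such as hbae1.1 and the weak hbae1.3 row, so their positions are uncertain. Filled points were called. In the minor cluster hbbe3 (2.82) lies above hbae4 (-0.10), hbbe2 (-0.80) and hbae5 (-1.26), while the points of the major cluster lie between -0.44 and 0.06.

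Other globin-family genes without a place in the member list were hbl2, hbl4, myoglobin (mb), the cytoglobins, neuroglobin (ngb), xgb and adgb beside hbae4 and hbbe1.2. Of their 9 tested rows 0 were called by limma, by DESeq2 or by edgeR. An unadjusted limma p under 0.05 was found for 2 (ngb and adgb), against 3182 of 20836 over all tested genes. Their median log2FC was -0.03. That of mb, the oxygen store of muscle, was -0.03, that of ngb was -0.43 and that of adgb was 0.43.

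Genes listed for a role beside globins in red cells were read next. In whole embryos the reads of listed genes, such as icn and tmod4 of the heme, iron and membrane list, need not come from red cells. The list of globin transcription regulators had 25 rows, among them the transferrin receptor gene tfr1a, which is no regulator and stands in the iron list too. Of the other 24 rows 0 were called by limma, 4 had an unadjusted p under 0.05 (3182 of 20836 over all tested genes), and DESeq2 and edgeR called 1 each. This was bach1b, whose mammalian homolog is a heme-sensing repressor, with a log2FC of 0.64 in limma (adjusted p 0.0501). The red cell factor gata1a had normalized counts of 13.9, 41.3 and 63.4 under DMSO, against 20.2, 15.0 and 32.7 under Tan I, and klf1, which activates beta globin genes in mammals, had 27.7, 36.4 and 50.1 against 30.3, 14.0 and 34.4. Both overlapped and were spread widely. Of 38 rows of erythroid heme, iron and membrane genes, 4 were called, all of them higher, and the median log2FC of the list was 0.01, where 2.07% of all tested genes were called higher and 0.504% lower. They were hebp2 (log2FC 0.76), which encodes a heme-binding protein, the biliverdin reductase gene blvrb (0.86), the mitochondrial membrane gene tspo (0.51) and rhag (0.31), an Rh-associated membrane protein gene. Of these hebp2 was called in all 17 alternatives, while rhag and tspo were called in 13 and blvrb in 15. In limma, leaving out DMSO replicate 2 took the calls of rhag (adjusted p 0.110) and tspo (0.126), and leaving out Tan I replicate 2 those of rhag (0.0765), tspo (0.0784) and blvrb (0.0535). The calls of rhag without DMSO replicate 1 (0.0553) and of tspo without Tan I replicate 1 (0.0935) were also lost. Limma without the trend did not call rhag (adjusted p 0.135), tspo (0.135) or blvrb (0.0759). An unadjusted limma p under 0.05 was found for 12 of the 38 rows, against 3182 of 20836 over all tested genes. Among these 12, tfr1a (log2FC -0.29), epb41a (-0.24) and alas2 (-0.24) were lower, none of them called, and the others were higher.

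Red cell markers other than globins were present in each library. The count of alas2, the first enzyme of heme synthesis in red cells, averaged 1205 ± 170 under DMSO and 1013 ± 74.5 under Tan I (SD, n = 3; limma adjusted p 0.249). The anion exchanger gene slc4a1a had 819 ± 103 and 1029 ± 213 (limma adjusted p 0.263), and the carbonic anhydrase gene cahz had 1062 ± 111 and 1149 ± 114 (limma adjusted p 0.608, all SD, n = 3). None of these 3 passed the threshold, and their log2FCs, -0.24, 0.32 and 0.11, had no common sign. The other non-globin markers set for red cells were tspo (0.51) and blvrb (0.86), both called higher, and gata1a (-0.61, limma adjusted p 0.574) and epor (0.12, 0.904), which were not called.

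Of 4 rows of heme breakdown genes, hmox1a (heme oxygenase) rose from 419 ± 19.0 to 868 ± 234 (SD, n = 3; limma adjusted p 0.00142), a call lost only without the trend (0.0792), and blvrb is the other called row, where 2.07% of all tested genes were called higher. Markers of other blood cells had a row for 9 of 10, with itga2b on none and none of the 9 at 0. Their summed count was 8282 to 9276 under DMSO and 10323 to 11484 under Tan I, mostly from thbs1b, the only one that limma called (log2FC 0.37, adjusted p 0.0218). At an unadjusted limma p under 0.05 stood 4 of the 9, all higher, against 3182 of 20836 in either direction over all tested genes. These were thbs1b, the neutrophil gene mpx (log2FC 0.40, adjusted p 0.102), lyz (0.43, 0.290) and the leukocyte gene ptprc (0.47, 0.284). DESeq2 called 2, thbs1b and mpx. The call of thbs1b was lost without the trend (limma adjusted p 0.181). It was also lost without DMSO replicate 2 (0.110) or 3 (0.0831) and without Tan I replicate 1 (0.0639) or 2 (0.112). Of the 9, 2 had a negative log2FC, mpeg1.1 (-0.15) and rag1 (-0.18), and neither was called. The sum of the list was higher where the globin sum was lower, but it mostly followed thbs1b, with means of 6555 under DMSO and 8435 under Tan I. It is therefore no count of blood cells, and its part in the globin values was not tested.

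The 5 genes whose log2 count was most like the log2 globin sum were cntn1b, med16, tmem259, rnf40 and porcnl, with Pearson's r between 0.991 and 0.998 over the 6 libraries. These are the highest r among all tested genes outside the members, picked from only 6 points each, so they are a description. The libraries of a group share treatment and depth range, and all 5 genes were lower in every Tan I library than in any DMSO library. None of the 5 was called.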

How the data were processed

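Paired-end reads of 6 libraries had been aligned by the authors to GRCz11 with STAR, reads mapping to several places removed, and reads per gene counted with featureCounts (versions and strand setting are not given in the sources used here). The deposited signal values are read counts that the authors scaled by the size factor of each library (DESeq2). In each library 100% of values were whole multiples of 1 read (tolerance 0.001 reads). The deposited comparison columns (mean, fold change, standard error, statistic, p-values) were not used. Gene IDs were matched to a table of names for 96.2%. No sequence was used.

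Genes with a mean of at least 10 were compared with limma (version 3.58.1, with a mean-variance trend, R 4.3.3) on log2(value + 1), 2-sided, with Benjamini-Hochberg adjustment over all 20836 tested genes. The pseudocount understates the change of weak genes. DESeq2 (1.42.0) and edgeR (4.0.16, quasi-likelihood) on recovered reads, pseudocounts of 0.1 and 10, quantile normalization, upper-quartile scaling, no trend, no filter, a filter at a mean of 100, a replicate block, leaving out each library, and thinning and sums that include hbbe1.2 (both added after values were seen) were alternatives. Members and lists were chosen with earlier results of these data known. All member rows, every called row of the lists, and gata1a, klf1, alas2, slc4a1a and cahz were named, and the 5 genes most like the globin sum; flanking genes, bach1b, mpx, lyz, ptprc, tfr1a, mb, ngb, adgb, nprl3 and other named genes were chosen after values were seen. The fits were first tested on simulated data.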

Additional observations from a re-analysis of the deposited data

How the results depend on the processing

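The 4 globin rows called (1 higher, 3 lower) became 1 (1 higher, 0 lower) without the trend, and ranged from 2 to 5 when libraries were left out 1 at a time, with 1 to 4 lower. At a mean of at least 100, where hbbe3 was not tested, 0 were higher. The 6 companion genes became 1 without the trend, 14 with the replicate block and 2 to 9 when single libraries were left out. With the replicate block 5 globin rows were called, hbae3 being added. Over all genes the block gave 1093 calls, against 536 in the main fit, which was planned with treatment as its only factor. Calls over all genes were 165 without the trend, and 214 to 700 when single libraries were left out. Deviations of same-numbered libraries correlated at 0.081, -0.029 and 0.21 across genes, which does not settle whether they were paired. Without hbae3 and hbbe1.1 the log2 difference of the sum over all rows was -0.44 (-0.30 with them) and of the beta sum -0.44 (-0.25). The cause was not tested beyond the rows left out. Signs turned only for rows that were not called: hbaa1 at upper-quartile scaling (-0.00021), quantile normalization (-0.12) and thinning (-0.091), hbbe1.1 at quantile normalization (0.0020), and without single libraries hbae1.3 weak row (-0.39 to 0.097), hbaa1 (-0.31 to 0.25), hbbe1.1 (-0.13 to 0.070) and hbae4 (-0.26 to 0.014). Reads of 10 to 27 per library limit what hbaa1 can show.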
